A study of Homo sapiens with 17 samples.

Results

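MER41 elements are long terminal repeats, and the internal sequence that once lay between them, of an endogenous retrovirus of the ERV1 class that entered the genome of an early primate. All repeats annotated as a subfamily whose name begins with MER41 were taken, which gave 7912 loci in 7 subfamilies (MER41-int, MER41A, MER41B, MER41C, MER41D, MER41E and MER41G) among 4748242 repeat loci counted. RNA was measured in 17 libraries of IMR90 ER:RAS cells, a line of human fetal lung fibroblasts that carries a retroviral vector for oncogenic RAS fused to the oestrogen receptor, so that 4-hydroxytamoxifen (4OHT) switches on the oncogene and the cells enter senescence. All cells carried the vector and were transfected with a small interfering RNA before treatment: a non-targeting one (siNT) with the solvent DMSO (5 libraries), siNT with 4OHT (6 libraries) or one against SMARCA4 (siSMARCA4) with 4OHT (6 libraries), and RNA was taken after 7 days. A number, 2 or 4, follows the name of the siRNA in every label (siNT 2 and siNT 4, siSMARCA4_2 and siSMARCA4_4), with 3 libraries of each in both 4OHT groups and 3 and 2 in DMSO siNT, and the labels do not say what the number stands for. SMARCA4 is the motor subunit that lets SWI/SNF complexes slide or evict nucleosomes. No siSMARCA4 library without 4OHT was analysed here, so an effect of the knockdown in dividing cells could not be measured, and 1 vector-carrying line stands for the cell type.

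A long terminal repeat holds the promoter and enhancer of a retrovirus. MER41 repeats are known for sites that respond to interferon-gamma, and members near AIM2, APOL1, IFI6 and SECTM1 are known as interferon-inducible enhancers. Such a site is called GAS (gamma-activated sequence). The counts describe RNA that covers the elements, not their activity as enhancers, and RNA that began in an element and RNA that ran through it were not separated.

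The reference sequence (GRCh38) shows the site in MER41B elements that are named in the results below. A GAS motif was searched as TTCNNNGAA, which reads the same on both strands, and is set in capitals. The MER41B element at chr11:61639913-61640531, which held most MER41 counts, carried a pair of motifs whose starts were 21 bases apart.

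The windows below are given in the orientation of that element, from 20 bases before the first motif to 20 bases after the last. The motif starts were 22 bases apart on chromosome 4 and 21 on chromosome 7 and near IFI6, so the second motifs do not all line up. They are from a MER41B element with RNA that rose after 4OHT (chromosome 4), from elements with RNA that did not pass the test (chromosomes 7 and 6), and from the MER41B element nearest to IFI6, which had no counts. The intervals are chr4:74096298-74096368 (minus strand), chr7:4795129-4795198 (plus), chr6:27136025-27136073 (minus) and chr1:27690348-27690417 (minus).

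Chromosome 4, rose: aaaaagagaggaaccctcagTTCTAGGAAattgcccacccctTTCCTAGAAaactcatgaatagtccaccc

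Chromosome 7, not called: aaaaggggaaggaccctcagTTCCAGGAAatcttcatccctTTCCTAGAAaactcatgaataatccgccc

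Chromosome 6, not called: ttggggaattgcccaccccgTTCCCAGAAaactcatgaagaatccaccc

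Near IFI6, no counts: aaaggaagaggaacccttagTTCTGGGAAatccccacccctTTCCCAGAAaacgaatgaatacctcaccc

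The pair was present in elements with and without RNA. The element on chromosome 6 held 1 motif, with flanks like those of the second motif in the other MER41B windows. Against the element on chromosome 11, identity was 80.0% over 639 aligned bases for the one at chr1:68384988-68385624, which also rose, 82.6% over 539 for chromosome 4, 75.3% over 510 for chromosome 7 and 78.6% over 621 for chromosome 6. The most similar other MER41B locus in the genome matched the element on chromosome 11 at 86.9% over 413 bases.

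The MER41G element at chr1:159077080-159077679 lay 314 bp from a transcript start of AIM2, a sensor of cytosolic DNA. It shared too few bases with MER41B to be oriented, and is shown on the plus strand (chr1:159077284-159077353).

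MER41G near AIM2: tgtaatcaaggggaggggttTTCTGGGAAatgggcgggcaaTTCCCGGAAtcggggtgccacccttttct

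The subfamilies differed in how often they held the motif. In the central 300 bases of loci of at least that length, a GAS motif was found in 1297 of 1627 MER41B windows (79.7%) and 201 of 220 MER41E windows (91.4%), in 30 of 76 for MER41G (39.5%), and in 12.7% for MER41-int, 8.43% for MER41C, 7.58% for MER41D and 1.32% for MER41A. The same search found it in 9.21% of 101290 windows of other ERV1 loci and in 7.66% of 35116 gene promoters of 300 bases taken from RefSeq. Paired motifs with starts 18 to 24 bases apart were found in 35.4% of MER41B, 37.7% of MER41E and 13.2% of MER41G windows, against 0.0622% of other ERV1 windows and 0.0541% of promoters. MER41B loci with and without counts held a motif at similar shares, 83.0% of 348 and 78.8% of 1279 windows. Over whole loci of any length a motif was found in 52.6% for MER41B, 60.2% for MER41E and 42.9% for MER41G. It was found in 34.8% for MER41C, 31.5% for MER41-int, 9.0% for MER41D and 4.17% for MER41A. The shares therefore depended on the window, and other ERV1 loci were not searched whole.

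**Figure D1:**
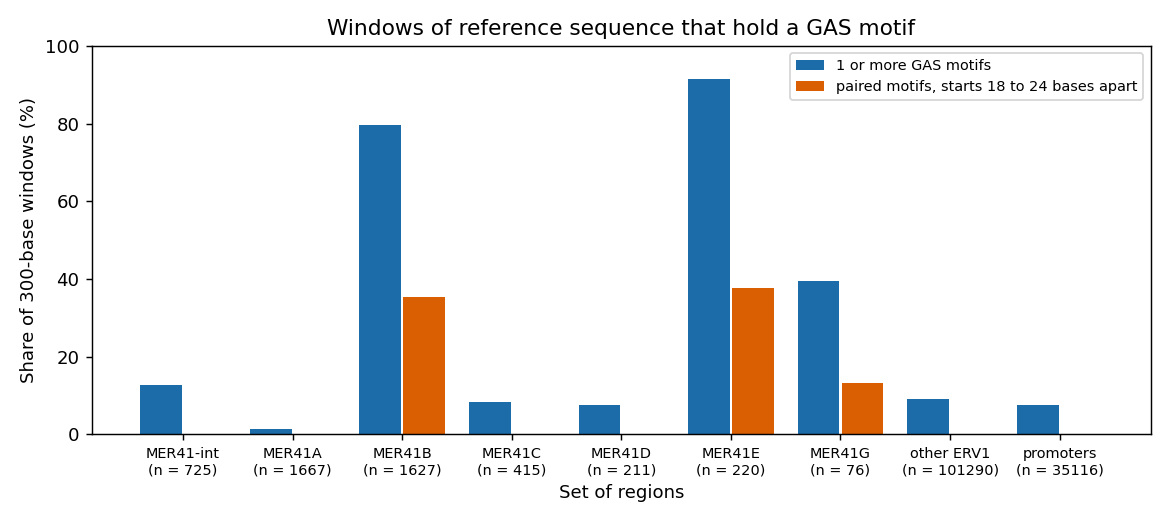
Share of 300-base windows (%, y axis) that held at least 1 GAS motif (blue) or paired motifs with starts 18 to 24 bases apart (orange), for each MER41 subfamily, other ERV1 loci and gene promoters, with the number of windows under each name. MER41B and MER41E windows held a motif in 79.7% and 91.4% of cases, and other ERV1 windows in 9.21%.

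The libraries held 39.1 to 69.0 M counts each (M, 1000000; TElocal estimates), with fibroblast markers (COL1A1, COL1A2, COL3A1, VIM, THY1 and PDGFRB) at 30.8 to 13004.5 CPM (counts per 1000000) in every library, leukocyte markers (PTPRC, CD14 and CD3E) at no more than 0.252, endothelial markers at no more than 4.52 and epithelial markers (EPCAM, KRT8 and CDH1) at no more than 19.1, the last value being of KRT8. SMARCA4 was at 268 ± 13.2 CPM (SD, n = 6) in 4OHT siNT and 88.0 ± 22.8 (n = 6) in 4OHT siSMARCA4, a log2 fold change of -1.61 (SE 0.13, adjusted p = 5.14e-07), and at 198 ± 19.2 (n = 5) in DMSO siNT. Library labels also end in V or VM, which they do not explain: all 6 libraries of 4OHT siNT were VM, 3 of 6 of siSMARCA4 and 3 of 5 of DMSO siNT. In siSMARCA4, SMARCA4 was at 68.4 to 78.2 CPM in the VM libraries and 82.6 to 127 in the V libraries. Nothing in the labels says that the libraries of a group came from separate cultures, so p-values measure the spread between these libraries.

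MER41 RNA was sparse and uneven. All MER41 loci together held 31695 counts, between 0.0674% and 0.313% of the repeat counts of a library. No count was seen at 6362 of the 7912 loci, 1388 had 1 to 9 counts in all 17 libraries together, and 162 had 10 or more. The filter on low counts left 17 loci for testing, and these carried 76.9% of the MER41 counts. The single MER41B element on chromosome 11 carried 20190 counts, 63.7% of the MER41 total and 84.1% of MER41B. Of all MER41 loci, 4026 lay outside genes, 3554 in introns and 332 over an exon of GENCODE 44.

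MER41 RNA rose after 4OHT, and most of the rise lay in 1 MER41B element. In the comparison of 4OHT siNT with DMSO siNT, which asks what changes when the oncogene is switched on, the counts of all MER41 loci together went from 11.3 ± 1.15 CPM (SD, n = 5) to 44.8 ± 0.818 (n = 6), a log2 difference of 2.00 (exact 2-sided permutation test, p = 0.00216, the smallest p that 5 against 6 allows). The lowest 4OHT siNT library was at 43.96 and the highest DMSO siNT library at 13.2 CPM. Without the element on chromosome 11 the values were 10.6 ± 1.26 and 11.96 ± 1.06 CPM, a log2 difference of 0.18 (exact permutation test, p = 0.0779). Loci outside genes rose without it too, from 3.36 ± 0.448 to 5.36 ± 0.249 CPM (log2 difference 0.68, exact permutation test, p = 0.00216), while loci in introns (4.48 ± 1.03 and 4.63 ± 0.483 CPM, exact permutation p = 0.675) and over exons (2.71 ± 0.641 and 1.98 ± 0.539 CPM, exact permutation p = 0.0758) did not pass the test. The sum outside genes still holds the MER41B elements on chromosomes 1 and 4 described below. All loci under the filter on low counts, in or outside genes, were together at 6.42 ± 1.47 and 7.44 ± 0.740 CPM. They did not pass (log2 difference 0.23, exact permutation test, p = 0.132).

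By subfamily, MER41B rose and MER41-int fell. MER41B was at 2.97, 4.14, 3.26, 2.98 and 3.36 CPM in the 5 DMSO siNT libraries. In 4OHT siNT it was between 35.7 and 38.6 with a median of 37.3, so that the groups did not overlap. The log2 fold change was 3.48 (adjusted p = 2.5e-13, edgeR quasi-likelihood test with Benjamini-Hochberg adjustment over 1026 subfamilies). MER41-int, the internal part of the provirus, was between 2.88 and 3.54 CPM in DMSO siNT and between 1.74 and 2.44 in 4OHT siNT, again without overlap (log2 fold change -0.57, SE 0.12, adjusted p = 0.00249). Without its locus over the 3′ end of the gene COQ7, described below, MER41-int was at 1.64 ± 0.386 and 1.45 ± 0.266 CPM, with overlap. The other 5 subfamilies did not pass, with 3.08 and 3.35 CPM for MER41A, 0.434 and 0.471 for MER41C, 0.641 and 0.842 for MER41D, 0.269 and 0.336 for MER41E, and 0.366 and 0.362 for MER41G in DMSO siNT and 4OHT siNT. Over all subfamilies 16.9% were called and 10.1% were called higher, so 2 of 7 MER41 subfamilies is not read as a high share. The median log2 fold change was 0.12 over the MER41 subfamilies and 0.05 over all. MER41B without its locus on chromosome 11 was at 2.65 ± 0.582 CPM in DMSO siNT and 4.5 ± 0.508 in 4OHT siNT, and the libraries still did not overlap. That remainder holds the element at chr1:68384988-68385624, at 0.0718 ± 0.0336 and 0.969 ± 0.217 CPM.

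**Figure D2:**
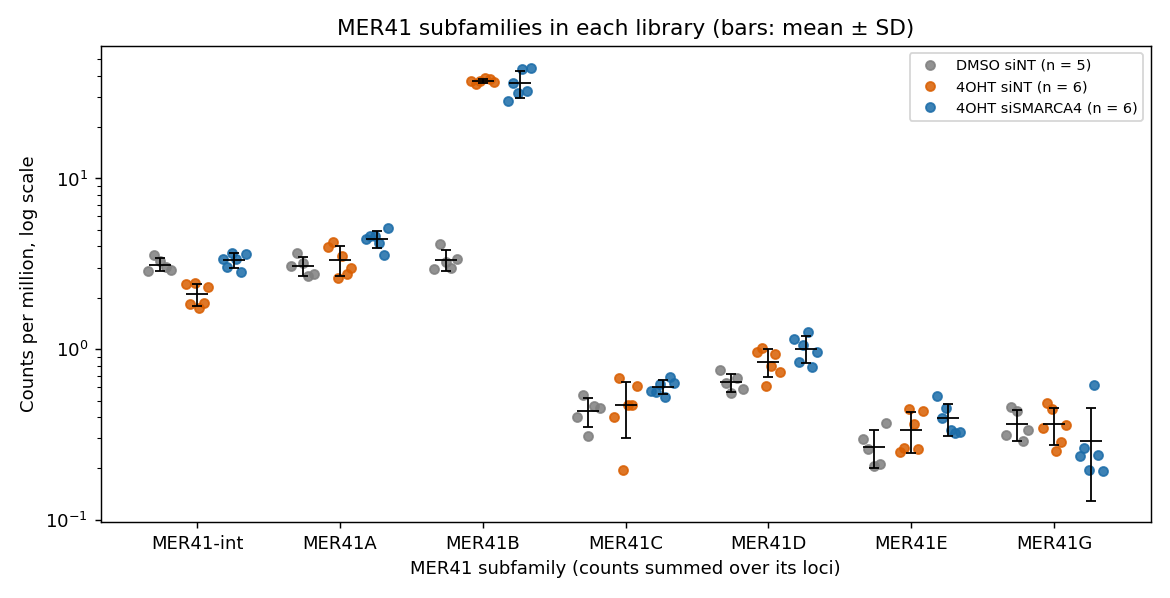
CPM (log scale) of each MER41 subfamily, summed over its loci, in every library. Points are libraries coloured by group and bars are the mean ± SD; MER41B was at 35.7 to 38.6 CPM in 4OHT siNT against 2.97 to 4.14 in DMSO siNT.

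Of the 17 MER41 loci tested, 5 were called after 4OHT, 4 higher and 1 lower. Over all 13026 repeat loci tested 27.4% were called and 18.1% were called higher, so this share is near the background. A locus passed the filter where 5 or more of the 17 libraries, of whichever group, reached 0.19 CPM (10 counts in a library of median size). No DMSO siNT library reached that level at 4 of the 17 loci, among them the called loci MER41B on chromosomes 1 and 4 and MER41A on chromosome 7, so these entered the test only through the 4OHT groups, and a rise there was favoured by the filter. The called loci outside genes were 3 MER41B elements, and each is described with what surrounds it.

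The element at chr11:61639913-61640531 was at 0.538, 0.637, 0.464, 1.11 and 0.904 CPM in DMSO siNT and at 31.7, 30.7, 32.5, 33.3, 33.0 and 31.9 CPM in 4OHT siNT. Every 4OHT siNT library was above every DMSO siNT library, and the log2 fold change was 5.46 (SE 0.19, adjusted p = 4.80e-13). The annotated end of RPLP0P2, a transcribed pseudogene of a ribosomal protein gene on the plus strand, lies 463 bp before it, and the nearest start of a coding gene, DAGLA (a diacylglycerol lipase), is 39860 bp away. RPLP0P2 itself went from 2.98 ± 1.15 CPM (SD, n = 5) to 156 ± 5.09 (n = 6), a log2 fold change of 5.70 (SE 0.20, adjusted p = 1.38e-13). Within 30000 bp of the element 46 other repeats had 10 or more counts, and 19 of them passed the filter. All 19 were called higher, but no DMSO siNT library reached the filter level at 17 of them and 16 had under 10 counts in DMSO siNT, so their direction was largely set by the filter and they are given as values only. The 46 repeats lay between positions 61615645 and 61642826, along RPLP0P2 and just past the element. Among them, an AluJo 303 bp before the element went from 0.156 ± 0.0942 to 7.11 ± 0.859 CPM and an AluSc8 486 bp after it from 0.212 ± 0.122 to 7.12 ± 0.929 CPM. The log2 ratio of the element to RPLP0P2 differed by -0.33 between the groups (exact 2-sided permutation test, p = 0.0628), so a change of the element apart from RPLP0P2 was not shown. Such ratios to the nearest transcribed gene were computed for 2 loci, this one and the element beyond CXCL2, both chosen after the values were seen. DAGLA did not pass the test (7.87 ± 1.03 and 9.35 ± 1.91 CPM, log2 fold change 0.25, adjusted p = 0.237).

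**Figure D3:**
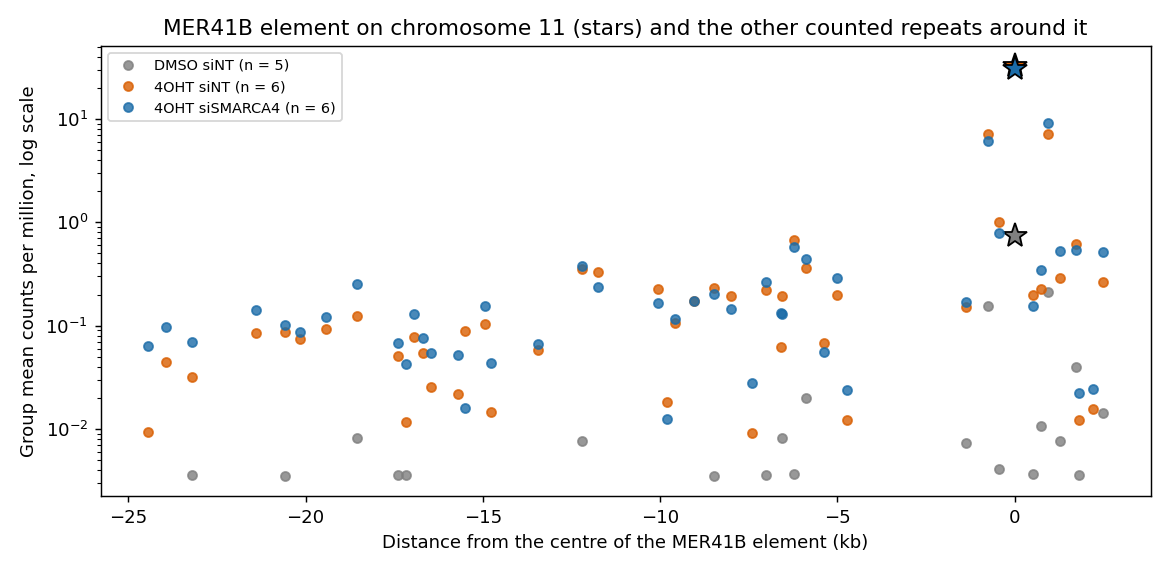
Group mean CPM (log scale) of the MER41B element on chromosome 11 (stars, at 0) and of the other repeats with 10 or more counts around it (circles), against the distance from the centre of the element in kb. Repeats with no count in a group are not drawn for that group; the DMSO siNT star is at 0.730 CPM and the 4OHT stars are at 32.2 and 30.4.

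The element at chr1:68384988-68385624 was at 0.0556, 0.0616, 0.0357, 0.0822 and 0.124 CPM in DMSO siNT and at 1.08, 1.03, 0.620, 1.12, 0.787 and 1.17 CPM in 4OHT siNT, again without overlap (log2 fold change 3.71, SE 0.40, adjusted p = 1.20e-06). It lies outside genes, 64330 bp from the start of RPE65, a gene of the visual cycle that had too few counts to test. A provirus of the HERVH family, with LTR7 at both ends, lies beside it: the first LTR7 begins 380 bp and the HERVH-int part 816 bp past the element. HERVH-int went from 2.88 ± 1.11 to 52.8 ± 13.0 CPM (log2 fold change 4.20, SE 0.38, adjusted p = 1.39e-07), and the LTR7 nearer to the element from 0.103 ± 0.0445 to 2.81 ± 1.28 CPM (log2 fold change 4.75, SE 0.56, adjusted p = 3.50e-06). The 3 flanking repeats that could be tested here were all called higher. The LTR7 nearer to the element had no DMSO siNT library at the filter level, so its rise was favoured by the filter.

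The element at chr4:74096174-74096724 lies 315 bp beyond the 3′ end of CXCL2, a chemokine of the senescence secretome that draws neutrophils and is transcribed from the minus strand. It had 1 count in the 5 DMSO siNT libraries together and 54 in the 6 of 4OHT siNT, with 4, 1, 10, 11, 13 and 15 counts in single libraries. Scaled by depth this is a ratio of 46.6 (exact 95% interval 8.01 to 1873.1, counting error only), and the fitted log2 fold change was 4.88 (SE 0.87, adjusted p = 2.91e-04). The locus passed the filter only through 2 libraries of 4OHT siNT and 4 of siSMARCA4, and was not tested when only the compared groups entered the fit. CXCL2 went from 1.05 ± 0.626 to 30.3 ± 6.38 CPM (log2 fold change 4.85, SE 0.35, adjusted p = 1.04e-09), and CXCL3, a chemokine gene in the same cluster, from 0.333 ± 0.159 to 98.3 ± 26.2 CPM (log2 fold change 8.21, SE 0.38). The log2 ratio of the element to CXCL2 differed by -3.13 between the groups and was lower in every 4OHT siNT library than in any DMSO siNT library (exact 2-sided permutation test, p = 0.00216), but with 1 count in DMSO siNT it rests there on the pseudocount of 0.05 CPM, which understates the change of the element. A MIR element 1313 bp from the MER41B element, within the span of CXCL2, was at 0.0615 ± 0.0363 CPM in DMSO siNT and 2.42 ± 0.397 in 4OHT siNT, and it too passed the filter with no DMSO siNT library at its level. On the side away from CXCL2, the nearest repeat with 10 or more counts, an AluY, had 2, 7 and 23 counts in DMSO siNT, 4OHT siNT and siSMARCA4 and was too low to test.

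The other called loci lie in genes. MER41A at chr7:76621978-76622360, in an intron of POMZP3 (a fusion of a nuclear pore and a zona pellucida gene copy) and of LINC03009, was at 0.0357 to 0.185 CPM in DMSO siNT and at 0.102 to 0.272 in 4OHT siNT, with overlap (log2 fold change 1.23, SE 0.41, adjusted p = 0.0312), and this call was lost in 12 of 28 alternative settings, among them leaving out 2-1V, 2-2V or 2-2VM of DMSO siNT or 4-1VM, 2-2VM or 4-2VM of 4OHT siNT (adjusted p up to 0.448 over all settings). POMZP3 itself did not pass (6.63 ± 0.948 and 5.90 ± 1.34 CPM). MER41-int at chr16:19079919-19081944 overlaps the 3′ end of COQ7, an enzyme of ubiquinone synthesis. It was at 1.29 to 1.93 CPM in DMSO siNT and at 0.399 to 0.982 in 4OHT siNT, without overlap (log2 fold change -1.28, SE 0.24, adjusted p = 5.31e-04). COQ7 fell as well, from 10.1 ± 0.701 to 6.26 ± 0.579 CPM (log2 fold change -0.69, SE 0.12, adjusted p = 6.31e-05). The locus accounted for 35.3% of MER41-int counts, and MER41-int without it was at 1.64 ± 0.386 CPM in DMSO siNT and 1.45 ± 0.266 in 4OHT siNT, with overlap. Between locus and host gene, the log2 ratio differed by -0.57 for MER41-int in COQ7 (exact permutation test, p = 0.0238), by 1.15 for this MER41A in POMZP3 (exact permutation p = 0.0260) and by 0.76 for a MER41D in an intron of ZNF701 (chr19:52566700-52566956, exact permutation p = 0.00649), and with siSMARCA4 by -0.48 for a MER41A in an intron of ASPH (exact permutation p = 0.0411). These 4 were the ones with p under 0.05 among 18 such unadjusted tests on 9 loci over both comparisons, and the libraries overlapped in each. As the MER41A in POMZP3 passed the filter with no DMSO siNT library at its level, a rise of its ratio after 4OHT was favoured beforehand.

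**Figure D4:**
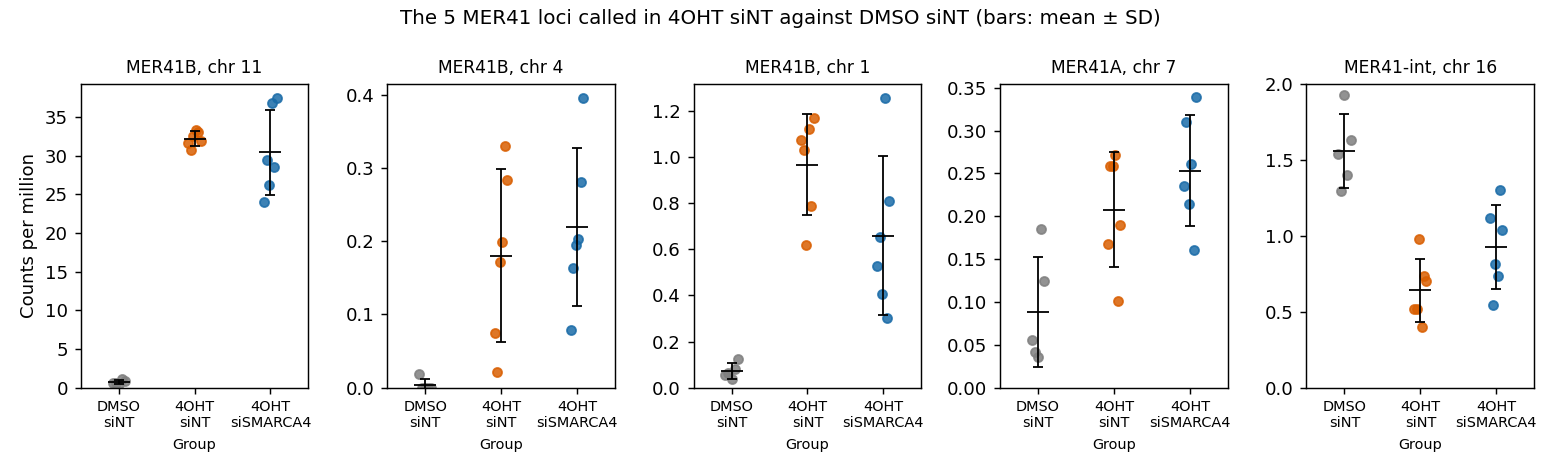
CPM of the 5 MER41 loci called in 4OHT siNT against DMSO siNT, 1 panel a locus with its own linear axis from 0. Points are libraries and bars the mean ± SD; for the MER41B elements and MER41-int the DMSO siNT and 4OHT siNT libraries do not overlap, and for MER41A on chromosome 7 they do. For MER41B on chromosome 4 the highest DMSO siNT library and the lowest 4OHT siNT library held 1 count each. Their order, 0.0185 and 0.0215 CPM, rests on depth.

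The other 12 tested loci did not pass. They were MER41-int over an exon of C1QTNF6 and outside genes on chromosome 9; MER41A outside genes on chromosomes 9 and 19, over an exon of SMAP2 and in introns of POMZP3 and ASPH; MER41B in an intron of DEAF1 and outside genes on chromosomes 6 and 7; and both MER41D elements of ZNF701. Their log2 fold changes lay between -1.14 and 0.93. Leaving out 1 library of 4OHT siNT brought 3 of them past the threshold: MER41-int on chromosome 9 (-1.50, adjusted p = 0.0337) and MER41A on chromosome 19 (1.09, adjusted p = 0.0490) without 2-2VM, and MER41A on chromosome 9 (-1.18, adjusted p = 0.0383) without 2-3VM. MER41A over SMAP2 was at 4.12 (adjusted p = 0.0286) among libraries with the number 4 and at -1.24 (adjusted p = 0.213) among those with the number 2. The MER41B elements on chromosomes 6 and 7, with sequences given above, were at 0.218 ± 0.0895 and 0.170 ± 0.0710 CPM (chromosome 6) and at 0.140 ± 0.0377 and 0.133 ± 0.0420 CPM (chromosome 7) in DMSO siNT and 4OHT siNT. Among 145 loci with 10 or more counts that were too low to test, 4 had every 4OHT siNT library above every DMSO siNT library, against 1.02% of all 146617 untested repeat loci with 10 or more counts. They were MER41B at chr3:45064653-45065269 (5 counts in DMSO siNT and 49 in 4OHT siNT), MER41B at chr19:48882234-48882395 in an intron of TULP2 (5 and 44), MER41-int at chr17:49074206-49075764 (2 and 28) and MER41G at chr7:81464064-81464934 (8 and 22). With siSMARCA4, 2 of the 145 had every library above every 4OHT siNT library, against 0.712% of all such loci.

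SMARCA4 knockdown in senescent cells, the other comparison, gave higher MER41-int and MER41A, while the MER41 total did not pass the test. All MER41 loci together were at 44.8 ± 0.818 CPM in 4OHT siNT and 46.1 ± 7.05 (both n = 6) in siSMARCA4, with overlap (log2 difference 0.03, exact permutation test, p = 0.732). Without the element on chromosome 11 the values were 11.96 ± 1.06 and 15.3 ± 1.79 CPM (log2 difference 0.35, exact permutation test, p = 0.0108), and the libraries overlapped. MER41-int was at 1.74 to 2.44 CPM in 4OHT siNT and at 2.84 to 3.66 in siSMARCA4, where every library was above every 4OHT siNT library (log2 fold change 0.66, SE 0.12, adjusted p = 0.00323). In DMSO siNT the sum was at 3.13 ± 0.277 CPM, and both comparisons share the 4OHT siNT libraries. The loci behind the sums were not at like levels, since the COQ7 locus was at 1.56 ± 0.243 CPM in DMSO siNT and 0.926 ± 0.276 in siSMARCA4. MER41A was at 2.60 to 4.26 CPM in 4OHT siNT and at 3.56 to 5.10 in siSMARCA4, with overlap (log2 fold change 0.40, SE 0.13, adjusted p = 0.0441). The MER41A call was lost in 17 of 29 alternative settings, among them leaving out 2-2VM, 4-2VM, 2-3VM or 4-3VM of 4OHT siNT or 2-1VM, 2-3V, 2-3VM, 4-2V or 4-3V of siSMARCA4, with adjusted p up to 0.612. MER41B did not pass, at 37.3 ± 1.10 and 36.1 ± 6.68 CPM (log2 fold change -0.05, SE 0.10, adjusted p = 0.784), nor did MER41C, MER41D, MER41E and MER41G, with log2 fold changes between -0.29 and 0.35.

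Repeats rose broadly in this comparison. Of all subfamilies 20.4% were called and 19.4% were called higher, and the median log2 fold change was 0.25 over all subfamilies and 0.27 over the MER41 subfamilies. Scaling factors from repeats alone set the median over all subfamilies near 0 beforehand (-0.02), so that value does not bear on the broad rise. With these factors neither MER41-int (0.38, adjusted p = 0.142) nor MER41A (0.14, adjusted p = 0.612) passed. Counts at 40774 sparse repeat loci more than 50000 bp from any gene moved with the knockdown, from 35.7 to 68.8 CPM in 4OHT siNT to 70.4 to 198 in siSMARCA4 (exact permutation test, p = 0.00216), against 47.5 to 119 in DMSO siNT. With that level as a covariate MER41-int was at 0.57 (adjusted p = 0.191) and MER41A at 0.38 (adjusted p = 0.354). The part of these sparse counts in the MER41 result was not tested beyond this. Without its COQ7 locus MER41-int was at 1.45 ± 0.266 and 2.38 ± 0.459 CPM in 4OHT siNT and siSMARCA4, with overlap.

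No MER41 locus was called in siSMARCA4 against siNT by edgeR or by DESeq2, against 6.16% of all 13026 repeat loci called by edgeR and 4.36% called higher. An unadjusted p under 0.05 was seen at 3 of the 17, against 22.9% of all tested loci, and after 4OHT at 8 of the 17, against 37.0%. The largest increases that did not pass were 1.04 (SE 0.34, adjusted p = 0.0765) for MER41A at chr19:58217514-58218061, outside genes 1334 bp from the start of the pseudogene RPS15AP36, and 0.97 (SE 0.33, adjusted p = 0.0872) for the MER41B element on chromosome 7, with 0.133 ± 0.0420 CPM in 4OHT siNT and 0.260 ± 0.106 in siSMARCA4. The first was at 0.0861 to 0.344 CPM in 4OHT siNT and at 0.207 to 0.601 in siSMARCA4. At the filter level it had 3 libraries of 4OHT siNT and 6 of siSMARCA4, and the MER41B element had 0 and 5. Neither locus could have entered the test without siSMARCA4 libraries, so a rise there was favoured by the filter. Each was called without library 4-3V of siSMARCA4 (adjusted p = 0.0430 and 0.0447), and the MER41A locus also without library 4-1VM of 4OHT siNT (adjusted p = 0.0481). Beside it RPS15AP36, a ribosomal protein pseudogene, was called (log2 fold change 1.08, SE 0.31, adjusted p = 0.0155). It was at most at 0.0968 CPM in DMSO siNT, at 0.0575 to 0.208 in 4OHT siNT and at 0.196 to 0.375 in siSMARCA4. RPS15AP36 too could not have entered the test without siSMARCA4 libraries, so its rise was favoured by the filter. Of 26 genes that host a tested locus or lie nearest to it, 19 could be tested. With siSMARCA4 3 of them, RPS15AP36 included, were called higher and 3 lower, against 10.4% of all genes called higher and 13.8% called lower. CXCL2 rose by 1.47 on the log2 scale (SE 0.26, adjusted p = 6.12e-04) while the element beyond its 3′ end was at 0.180 ± 0.118 and 0.219 ± 0.108 CPM (log2 fold change 0.29, adjusted p = 0.786). The log2 ratio of that element to CXCL2 differed by -1.11 (exact 2-sided permutation test, p = 0.0260), with overlap. The non-coding gene ENSG00000290032, 2104 bp from the MER41B element on chromosome 6, rose by 0.42 (adjusted p = 0.0301), and CXCL3, which is not one of the 19, by 0.76 (adjusted p = 0.0244). PRSS3, a trypsinogen and the coding gene nearest to both MER41 elements outside genes on chromosome 9, fell by 1.17 (SE 0.22, adjusted p = 0.0012). DAGLA fell by 0.52 (SE 0.16, adjusted p = 0.0293) and DEAF1, a transcription factor that holds a MER41B in an intron, by 0.32 (SE 0.10, adjusted p = 0.0235). The same MER41B also lies within EPS8L2 and TMEM80. TMEM80 went the other way and did not pass (log2 fold change 0.25, adjusted p = 0.0834, edgeR).

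**Figure D5:**
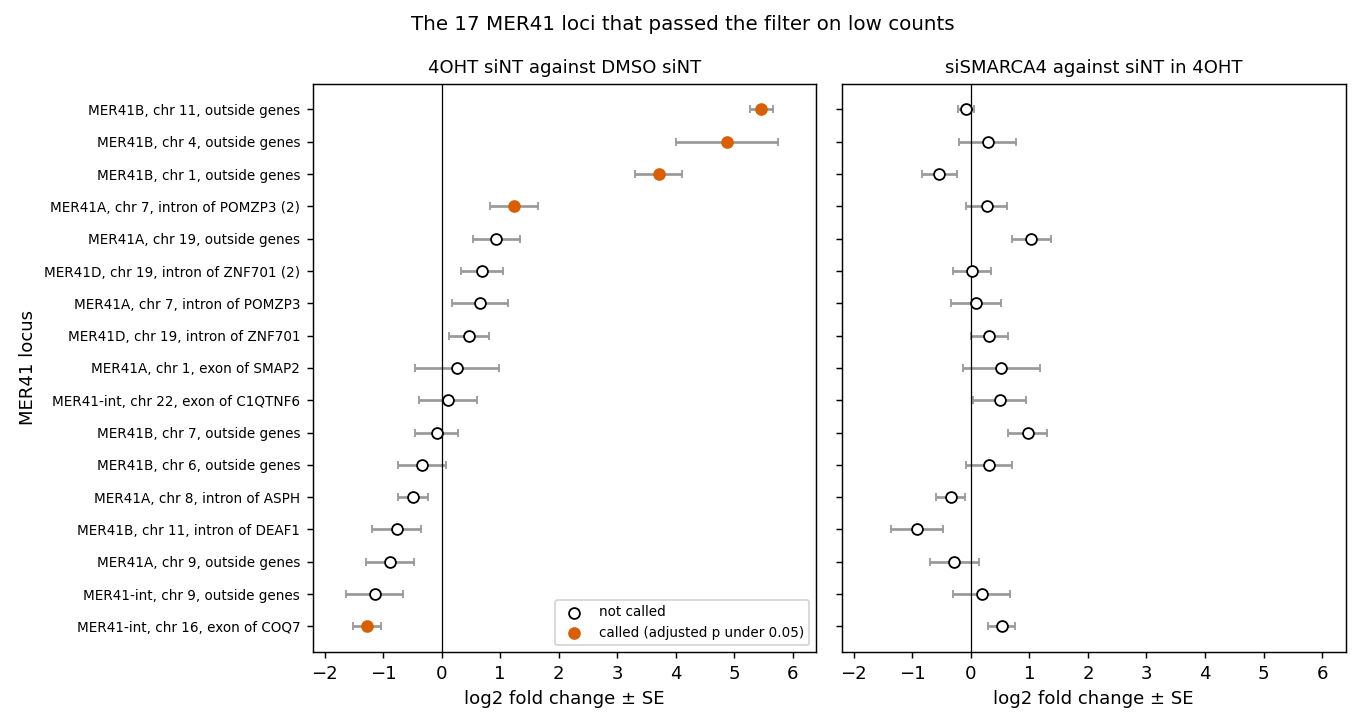
Log2 fold change ± SE of the 17 tested MER41 loci in 4OHT siNT against DMSO siNT (left) and siSMARCA4 against siNT in 4OHT (right), ordered by the left panel; filled circles are called and a number in brackets marks another locus in the same gene. The MER41B elements on chromosomes 11, 4 and 1 stand at 5.46, 4.88 and 3.71 on the left and at -0.08, 0.29 and -0.54 on the right.

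The MER41B values in siSMARCA4 split by the V and VM labels. The element on chromosome 11 was at 24.1, 26.2 and 28.5 CPM in the 3 VM libraries of siSMARCA4, below all 6 libraries of 4OHT siNT (30.7 to 33.3, all VM), and at 29.5, 36.8 and 37.5 in the 3 V libraries. RPLP0P2 showed the same order, with 118 to 139 CPM in VM and 139 to 164 in V libraries of siSMARCA4 against 148 to 162 in 4OHT siNT. The element on chromosome 1 was at 0.300 to 0.530 CPM in VM and 0.655 to 1.26 in V libraries of siSMARCA4, against 0.620 to 1.17 in 4OHT siNT. Among VM libraries alone MER41B was lower with siSMARCA4 (log2 fold change -0.27, adjusted p = 0.0340), as was the element on chromosome 1 (-1.23, adjusted p = 0.0447), MER41-int was higher (0.66, adjusted p = 0.0191) and MER41A did not pass (0.34, adjusted p = 0.195). As 4OHT siNT had no V library, no such comparison could be made among V libraries. The knockdown effect did not differ between libraries with the number 2 and with the number 4 after the siRNA name at an adjusted p under 0.05 for any MER41 subfamily or tested locus. Over all subfamilies tested 0 and over all repeat loci tested 1 passed in this comparison. It therefore called almost nothing anywhere, and like effects of the numbers were not shown. For the element on chromosome 11 it was -0.29 (SE 0.11) in number 2 and 0.10 (SE 0.11) in number 4, a difference of -0.38 (SE 0.16, unadjusted p = 0.0283, adjusted p = 0.765, edgeR).

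Of the MER41 elements near the genes known for interferon-inducible copies, those nearest to transcript starts of AIM2 (314 bp, in an intron of AIM2), IFI6 (17944 bp, MER41B) and SECTM1 (4669 bp, MER41G) had 0 counts in all 17 libraries. The MER41G in an intron of APOL1, 5339 bp from a transcript start, had 8, 6 and 3 counts in DMSO siNT, 4OHT siNT and siSMARCA4. The 3 of these genes that could be tested were called lower after 4OHT, against 27.4% of all 19473 genes called lower. APOL1, a lipoprotein that lyses trypanosomes, was at 3.24 ± 1.71 CPM in DMSO siNT and 0.119 ± 0.0542 in 4OHT siNT (log2 fold change -4.76, SE 0.39, adjusted p = 7.33e-09), and SECTM1, a secreted ligand of T cells, at 8.77 ± 2.46 and 0.992 ± 0.197 (log2 fold change -3.14, SE 0.27, adjusted p = 1.22e-08). IFI6, an inhibitor of apoptosis induced by interferon, was at 9.25 ± 2.00 and 6.02 ± 2.28 CPM, with overlap (log2 fold change -0.62, SE 0.25, adjusted p = 0.0421). AIM2 went the other way, from 0.00349 ± 0.00780 to 0.0680 ± 0.0268 CPM, with every 4OHT siNT library above every DMSO siNT library. At 1 and 20 counts in these groups it was too low to test. None of the 3 tested genes passed in siSMARCA4 against siNT.

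A wider list of 42 interferon and STAT pathway genes, which holds the 4 genes above, moved in both directions after 4OHT. Of the 35 that could be tested 14 rose and 10 fell, and APOL1, SECTM1 and IFI6 are among the 10. Of all 19473 genes 54.4% were called (27.0% higher and 27.4% lower), and the median log2 fold change of the list was 0.11. Among receptors and kinases 5 of 7 rose and none fell. They were IFNGR1 and IFNGR2, the chains of the interferon-gamma receptor, and also IFNAR1, IFNAR2 and TYK2, which are not part of it. IFNGR1 went from 24.2 ± 1.90 to 34.0 ± 5.71 CPM (log2 fold change 0.49, SE 0.11). JAK1 (log2 fold change 0.19, adjusted p = 0.0723, edgeR) and JAK2 (-0.24, adjusted p = 0.0871, edgeR) did not pass. Among transcription factors 3 of 8 rose (STAT3, IRF2 and IRF1, the last an activator of interferon genes, by 1.09, SE 0.09) and STAT5A fell. Of the inhibitors SOCS3 rose, SOCS1 and PIAS1 fell. Of 12 tested targets 5 rose (ICAM1, an adhesion molecule, by 4.88, SE 0.42; CXCL10 by 4.05, SE 0.41; CXCL11, TAP1 and WARS1) and 4 fell (GBP1 by 2.70, SE 0.21; GBP2, GBP3 and PSMB9). In siSMARCA4 against siNT 1 of the 35 rose, the chemokine CXCL10 (7.42 ± 0.832 to 38.7 ± 9.95 CPM, log2 fold change 2.38, SE 0.31, adjusted p = 5.33e-05), and 2 fell, among them TYK2 (-0.29, SE 0.09, adjusted p = 0.0258), against 24.2% of all genes called.

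Of 776 tested genes whose start lay within 10000 bp of a MER41 locus, 227 rose and 226 fell after 4OHT (58.4% called, against 54.4% of all genes). With siSMARCA4 104 of them rose and 96 fell (25.8% called, against 24.2%), which is 13.4% higher and 12.4% lower, while over all genes 10.4% were called higher and 13.8% lower. For the 304 genes near MER41B the called shares were 55.9% after 4OHT and 27.0% with siSMARCA4, and with siSMARCA4 49 rose (16.1%) and 33 fell (10.9%). The median log2 fold changes with siSMARCA4 were 0.03 near any MER41 locus, 0.06 near MER41B and -0.02 over all genes, and after 4OHT -0.0026, -0.03 and 0.0038. These differences between gene sets were not tested.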

How the data were processed

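RNA of 17 libraries was sequenced after poly(A) selection with a strand-specific kit. The deposited values are expected counts: per the study's methods, the authors trimmed reads (Cutadapt 4.7), aligned them with HISAT2 (version 2.2.1 in the submitters' processing notes, up to 100 alignments a read) to GRCh38 and counted genes (Ensembl 100) and single RepeatMasker loci with TElocal, which shares reads among their alignments. Young, near-identical copies are therefore uncertain. Counts were rounded, summed by subfamily, scaled by TMM and tested with edgeR 4.0.16 (quasi-likelihood; all 3 groups in 1 fit; filterByExpr, minimum count 10, total 15). Benjamini-Hochberg adjustment ran over 19473 genes, 1026 subfamilies and 13026 loci separately, with calls at an adjusted p under 0.05, and DESeq2 1.42.0 was an alternative. Sums and log2 ratios (pseudocount 0.05 CPM) were compared by 2-sided exact permutation tests. Loci were placed with GENCODE 44, and identities came from blastn 2.17.0. Scripts were tested on simulated data. Depth was 39.1 to 69.0 M counts a library. Intervals cover counting error only. Loci were named where called, where among the 8 with the highest level, or where nearest to AIM2, APOL1, IFI6 or SECTM1, and the other tested loci, CXCL3, RPLP0P2 and flanking repeats were named after their values were seen. Members and lists were chosen with earlier results of these data known. One gene of the pathway list and 2 sequences are not reported here.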

Additional observations from a re-analysis of the deposited data

Results flagged for a closer look

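In 3 of 72 groups of libraries examined 1 library stood apart from the rest of its group by Dixon's criterion, and chance alone flags about 1 in 20 groups. MER41G was at 0.614 CPM in siSMARCA4 library 4-2V, with a gap to the next library of 0.835 of the range of its group. MER41A over an exon of SMAP2 (chr1:40422628-40422764) was at 1.19 CPM in siSMARCA4 library 4-3V (gap 0.730 of the range). The MER41B element beyond CXCL2 (chr4:74096174-74096724) was at 0.0185 CPM in DMSO siNT library 2-1V, which is 1 count where the other 4 libraries had 0. Neither MER41G nor the SMAP2 locus was called in either comparison.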

How the results depend on the processing

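Of 1377 values of named subfamilies and loci under the alternatives, 1333 kept their direction and their side of the threshold, or were not called either way, 34 lost a call, 10 gained one and 0 called values reversed. The 2 subfamilies called with siSMARCA4 became 0 with scaling factors from repeats alone, with sparse far repeats as a covariate or in number 2 libraries, and 1 with the number after the siRNA name or V and VM as a covariate or in number 4 libraries, and were 1 to 2 when single libraries were left out. Over all subfamilies the 209 calls became 21 with factors from repeats alone, 2 with the sparse covariate and 59 with V and VM as a covariate. The 2 called after 4OHT became 1 in number 2 and 1 in number 4 libraries, and stayed at 2 without any single library. For loci, the 0 called with siSMARCA4 became 1 with V and VM as a covariate and 1 in VM libraries, and 0 to 2 without single libraries. The 5 of 17 called after 4OHT became 10 of 162 tested with no filter and 3 of 12 with only both compared groups in the fit, and 4 to 8 without single libraries, the 8 of 21 tested being without DMSO siNT library 4-2VM or 4-3VM. The summed log2 difference with siSMARCA4 (0.03) turned to -0.24 with factors from repeats alone (exact permutation p = 0.0152) and -0.15 in VM libraries (exact permutation p = 0.0119), was 0.35 without the element on chromosome 11, and ran from -0.03 to 0.08 without single libraries. After 4OHT (2.00) it was 0.18 without that element, 1.94 in number 2 and 2.08 in number 4 libraries (exact permutation p = 0.1 each, the smallest these library numbers allow), and 1.97 to 2.06 without single libraries. The share of MER41 regions with a GAS motif (34.3% of windows) was 30.9% over whole loci, and within 50000 bp 25.2% of 3312 tested genes were called with siSMARCA4 (833) and 57.2% after 4OHT (1895), shares close to the 25.8% and 58.4% of 776 within 10000 bp. The causes were not tested.

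Whether library labels that recur across groups pair the libraries could not be settled, since only 3 pairs a comparison share a label. Correlations of same-label deviations ran from -0.132 to 0.331 over 3 pairs with siSMARCA4 (4 of 6 libraries correlated best with their own label) and from -0.409 to 0.223 with 4OHT (0 of 6). With the replicate label as a block MER41-int stayed called with siSMARCA4, and MER41A did not pass (0.32, adjusted p = 0.195, edgeR). The 209 calls over all subfamilies became 69. At 17 of 7912 loci, depth limits tests by locus to the few with most RNA.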

Other observations

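Besides the 17 tested loci, 145 MER41 loci had 10 or more counts. With siSMARCA4 every library was above every 4OHT siNT library at 2 of them, against 0.712% of all 146617 untested repeat loci with 10 or more counts. MER41-int at chr17:49074206-49075764 had 2, 28 and 81 counts in DMSO siNT, 4OHT siNT and siSMARCA4, and MER41B at chr16:55481000-55481659, over an exon of the gelatinase gene MMP2, had 2, 1 and 8. At the MMP2 locus the order rests on single counts in a library and on depth, so more RNA was not shown there. None of the 145 loci was below in either comparison, and the share for all untested repeat loci was not computed. A locus cannot be below where a library of the group compared against had 0 counts, as at many of these. No direction is read from this. MER41B at chr20:51338509-51339180, outside genes, had 0 counts in DMSO siNT, 40 in 4OHT siNT (5 of 6 libraries) and 47 in siSMARCA4.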
